A study of Mus musculus with 52 samples.

Results

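The 26 genes described here encode 20 enzymes of cholesterol and isoprenoid synthesis and 6 proteins that control or carry sterols. They were chosen by a list of names, not by a threshold on measured values, and all 26 were found among the 49466 genes of both deposited count tables. The study followed BFU-E cells (burst-forming unit-erythroid), early progenitors committed to making red cells. They were taken from the fetal liver of C57/Bl6J mice at embryonic day 14.5, depleted of cells with markers of mature blood cells, and selected with antibodies against CD117, CD71 and CD24. Each founder was kept alone in a well for 16 hours, either with 100 nM of the synthetic glucocorticoid dexamethasone or untreated, and where it had divided once both daughters were sequenced as single cells. The 52 libraries form 13 dexamethasone pairs and 13 untreated pairs. No genetic change is given for either group, and no animal is named, so founders may share an embryo or a litter and p-values reflect only their spread.

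Animal cells make sterols and isoprenoids from acetyl-CoA through mevalonate. Isoprenyl units are joined into farnesyl diphosphate, which feeds dolichol, ubiquinone and protein prenylation as well as squalene, the first intermediate committed to sterols. Squalene is oxidised and closed into lanosterol, which a chain of demethylases, reductases and isomerases turns into cholesterol. The transcription factor SREBP-2, encoded by Srebf2, is held in the endoplasmic reticulum by SCAP and the INSIG proteins when sterol is plentiful, and is released to switch on most of these enzymes when it is scarce. Dividing blood progenitors need sterol for new membrane.

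Library totals ran from 0 to 5606500 counts. The 4 libraries under 100000 counts, all untreated, held at most 13575. The 3 untreated pairs to which they belong, numbers 4, 7 and 12, were left out, which left 13 dexamethasone and 10 untreated pairs. Their 46 libraries are among 48 that held at least 210383 counts (median 2773001) and detected 3886 to 9473 genes. Levels are CPM of a pair, that is the counts of a gene in both daughters, scaled to their total. A pair at 0 CPM allows a level up to the CPM of 3 counts in its total, which lay between 0.293 and 2.85 CPM over the 23 pairs, counting error only.

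Every sample is labelled as BFU-E, and 5 of the 23 pairs went against that label. In dexamethasone pairs 6, 7 and 10 and untreated pairs 9 and 10, both daughters expressed granulocyte and monocyte markers above erythroid markers, although the depletion before sorting was directed at CD11b and Ly-6G, surface markers of mature myeloid cells, among others. They are called myeloid-like here, and the other 18 pairs erythroid-like; by these markers 0 pairs had daughters in different classes. Clusters over 1000 variable genes gave the same class for 47 of 48 cells, the exception being a daughter of dexamethasone pair 12. The 26 genes were removed before clustering but the markers were not, and the clusters were named by their markers. This agreement is therefore partly built in. Over 15 granulocyte and monocyte markers the summed level was 8034 to 41906 CPM in the 10 myeloid-like libraries and 0.258 to 5709 CPM in the 38 erythroid-like libraries among the 48. Over 19 erythroid markers it was 124 to 1738 CPM in myeloid-like libraries and 1741 to 17724 CPM in erythroid-like ones. Neither list was uniform. Mpo averaged 13568 CPM in myeloid-like libraries, while Cebpe and S100a9 had no count in any library. The erythroid marker Nfe2 went the other way, with means of 290 CPM in myeloid-like and 126 CPM in erythroid-like libraries. The class of a library follows from which list has the higher mean on the log2(CPM + 1) scale. That margin was under 1 in 1 library and under 2 in 4 libraries. None of the 26 genes is in either list, so the classes did not use them. In no library did 3 or more of the hepatocyte, lymphoid, macrophage, endothelial, mast cell or stem cell markers reach 10 CPM, whereas 3 or more megakaryocyte markers did so in 1 myeloid-like and 6 erythroid-like libraries. In myeloid-like libraries 2 of 4 mast cell, 4 of 5 lymphoid, 3 of 5 macrophage and 4 of 5 endothelial markers had no count at all. These lists could not reach 3 markers there. Of the mast cell markers, Cpa3 averaged 197 CPM and reached 1154 CPM in myeloid-like libraries, and Mcpt8 reached 539 CPM. Their means in erythroid-like libraries were 1.54 and 0.25 CPM.

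Promoters are shown for the genes that the levels and comparisons turn on, as far as the sequence table holds them. It has a window from 250 bases before to 50 after the transcription start for 22 of the 26 genes; Fdft1, Sqle, Fdps and Stard4 have none. The sequences are RefSeq's on GRCm38.p6, written 5′ to 3′ along the gene's own strand, with matches to the NF-Y motif CCAAT or the sterol element TCACNCCAC in capitals, on either strand (ATTGG is CCAAT on the other strand). Lss, the lanosterol synthase gene, at chr10:76531355-76531654 on the plus strand, had 1 CCAAT match. Acat2, at chr17:12960676-12960975 on the minus strand, had none of either motif. Lbr, at chr1:181842352-181842651 on the minus strand, had 2 CCAAT matches. Hmgcs1, at chr13:119690101-119690400 on the plus strand, was added after the motifs were counted, because it holds the 1 sterol element match. It also had 4 CCAAT matches.
Lss: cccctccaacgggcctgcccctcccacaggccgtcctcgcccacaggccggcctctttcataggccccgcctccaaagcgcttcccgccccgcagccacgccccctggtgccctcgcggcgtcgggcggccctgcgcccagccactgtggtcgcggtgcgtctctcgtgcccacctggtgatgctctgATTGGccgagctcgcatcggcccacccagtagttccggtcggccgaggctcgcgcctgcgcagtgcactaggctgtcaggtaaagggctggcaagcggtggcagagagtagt
Acat2: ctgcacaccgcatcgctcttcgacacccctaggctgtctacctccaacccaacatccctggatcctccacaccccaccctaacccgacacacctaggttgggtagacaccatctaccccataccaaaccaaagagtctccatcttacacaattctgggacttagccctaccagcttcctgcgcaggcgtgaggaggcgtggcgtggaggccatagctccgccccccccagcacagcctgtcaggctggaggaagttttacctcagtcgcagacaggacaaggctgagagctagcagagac
Lbr: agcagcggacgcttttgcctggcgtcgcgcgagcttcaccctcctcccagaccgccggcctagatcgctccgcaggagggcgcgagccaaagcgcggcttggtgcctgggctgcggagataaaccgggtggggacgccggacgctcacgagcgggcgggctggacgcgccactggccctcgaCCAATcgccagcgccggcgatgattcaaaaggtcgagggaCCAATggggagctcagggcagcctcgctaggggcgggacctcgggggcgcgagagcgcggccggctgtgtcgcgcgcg
Hmgcs1: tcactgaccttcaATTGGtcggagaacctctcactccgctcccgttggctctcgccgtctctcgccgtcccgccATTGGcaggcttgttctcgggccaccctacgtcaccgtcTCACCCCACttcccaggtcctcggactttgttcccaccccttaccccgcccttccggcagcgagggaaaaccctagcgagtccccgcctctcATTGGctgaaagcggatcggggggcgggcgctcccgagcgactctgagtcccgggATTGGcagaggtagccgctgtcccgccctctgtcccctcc
CCAAT stood in the windows of 20 of the 22 genes, all but Acat2 and Scap. Counted by windows, since a gene can have several starts, it stood in 21 of 30 (70%), against 37.4% of all 32851 windows in the table. The sterol element stood in 1 of 30 windows, against 1.24% of all windows. A match to these letters describes the window and is no evidence of binding.

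The most abundant transcript per kilobase of exon was Acat2, which encodes cytosolic acetoacetyl-CoA thiolase, at a mean of 138 CPM per kilobase over the 23 pairs. Next came Lbr, a lamin-binding sterol reductase of the nuclear envelope, at 84.2 CPM per kilobase. Pmvk, the phosphomevalonate kinase gene, stood at 75.2 CPM per kilobase. The lowest of the 26 was Tm7sf2, the gene of another sterol reductase for the same step as Lbr, at 4.78 CPM per kilobase. Hsd17b7, a sterol ketoreductase gene, at 4.94 CPM per kilobase, and Insig2 at 6.70 CPM per kilobase came just above it. Detection in single cells differed between genes. Counts were present in both daughters of all 23 pairs for Acat2, Lbr, Msmo1 and Srebf1. For Tm7sf2, in contrast, 1 daughter had no count while the other had at least 10 CPM in 10 pairs, and for Hsd17b7 this was so in 9 pairs. Srebf1, though counted in every cell of the 23 pairs, was under 10 CPM in 16 of 36 erythroid-like and 8 of 10 myeloid-like cells. Reads of Tm7sf2 may be shared with Vps51, which overlaps it on the same strand.

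**Figure D1:**
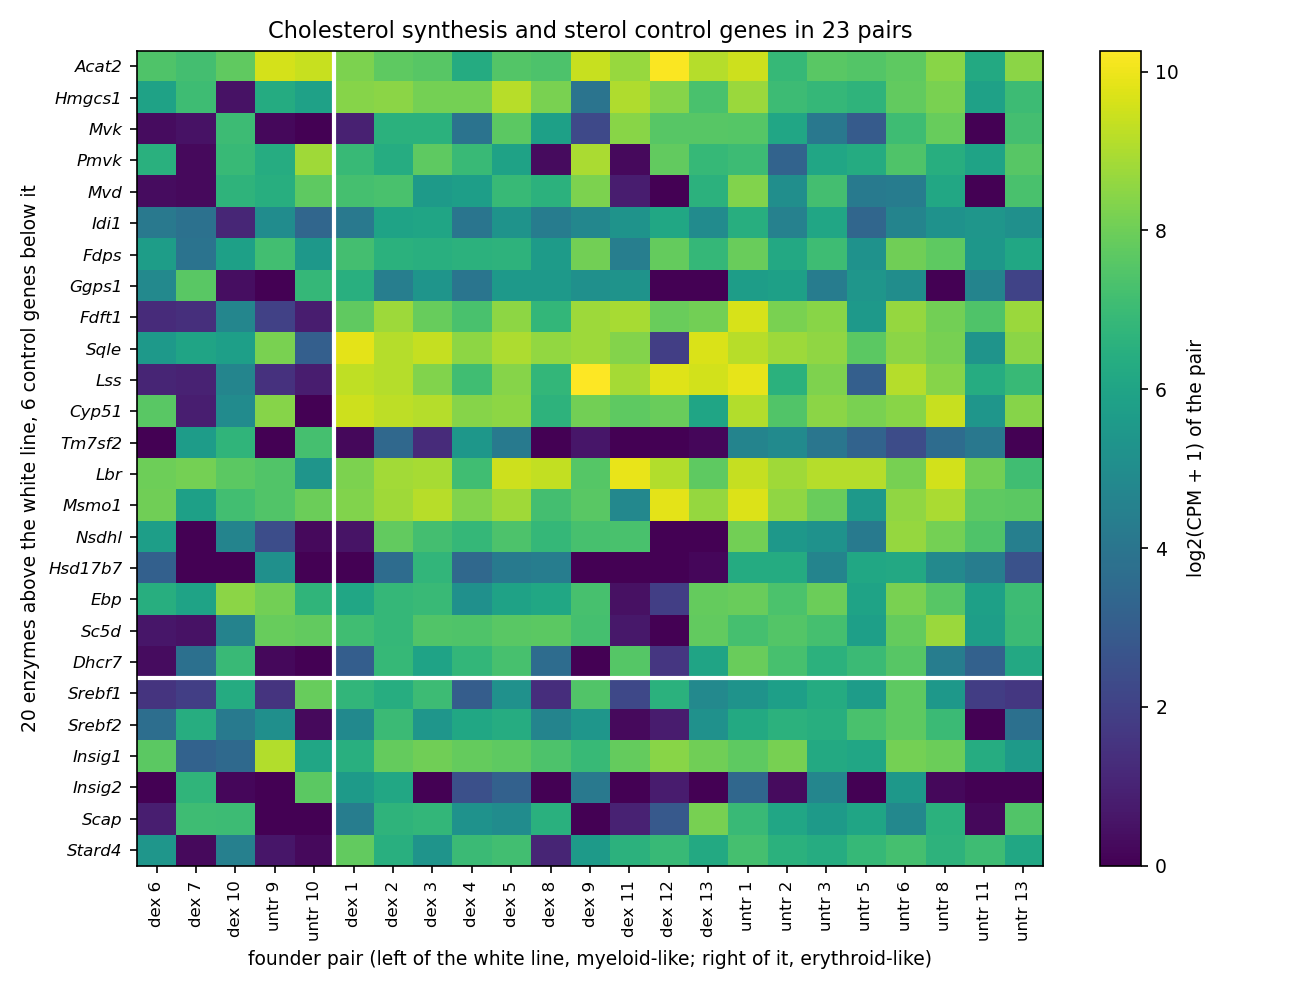
Levels of the 26 genes, in pathway order down the page, in each of the 23 pairs, as log2(CPM + 1) of the pair from dark (0) to bright, with dexamethasone written dex and untreated untr; the 5 myeloid-like pairs stand left of the white line and the 18 erythroid-like pairs right of it. Fdft1 and Lss are dark in the myeloid-like pairs (0.778 to 24.8 CPM and 0.778 to 24.4 CPM), while Acat2 is bright on both sides.

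Fdft1 and Lss, whose products make squalene and close its epoxide into lanosterol, fell to at most 2.94 CPM in 4 of the 5 myeloid-like pairs, against medians of 280 and 335 CPM in erythroid-like pairs. They were the 2 of 26 genes called by edgeR's quasi-likelihood test (adjusted p under 0.05, Benjamini-Hochberg over all 7190 genes tested, treatment as a covariate). Over all genes 2.34% were called, 1.29% as lower and 1.04% as higher. Of the 26 genes 18 had a negative fold change, with a median of −0.86 on the log2 scale, against 3519 of all 7190 genes and a median of 0.03. This lowering was uneven between library plate columns: 21 of the 26 were negative with a median of −1.48 in columns 1 to 4 alone, and 13 of the 26 with a median of −0.10 in columns 5 to 7 alone, while the median of all genes was −0.07 and −0.03 in these sets. At an unadjusted p under 0.05 there were 7 of the 26, against 1055 of the 7190. The median CPM of myeloid-like pairs lay below that of erythroid-like pairs for 23 of the 26 genes (88.5%), against 65.4% of all genes tested.

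Fdft1 (ENSMUSG00000021273, chromosome 14, 63145150 to 63179578, minus strand, GRCm38) encodes squalene synthase. It stood at 1.39, 1.59 and 24.8 CPM in myeloid-like dexamethasone pairs 6, 7 and 10 and at 2.94 and 0.778 CPM in myeloid-like untreated pairs 9 and 10. In the 18 erythroid-like pairs it ran from 44.6 to 797 CPM with a median of 280 CPM. The groups did not overlap, which was so in this direction for 16 of all 7190 genes. The fold change was −5.46 ± 0.86 on the log2 scale (SE, n = 5 myeloid-like and 18 erythroid-like pairs; edgeR adjusted p = 0.000834). Among single cells, 8 of 10 myeloid-like cells were under 10 CPM, against 2 of 36 erythroid-like cells. Fdft1 overlaps Ctsb on the opposite strand, and the sources used here do not say whether counting used the strand. Ctsb had a fold change of 0.17 ± 0.40 (SE; edgeR adjusted p = 0.918) in the same comparison.

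Lss (ENSMUSG00000033105, chromosome 10, 76531588 to 76557138, plus strand) encodes lanosterol synthase. It stood at 1.11, 0.992 and 24.4 CPM in myeloid-like dexamethasone pairs 6, 7 and 10 and at 1.73 and 0.778 CPM in myeloid-like untreated pairs 9 and 10. In erythroid-like pairs it ran from 7.60 to 1226 CPM with a median of 335 CPM. The overlap was that 1 erythroid-like pair, untreated pair 5, lay below the highest myeloid-like pair. The fold change was −6.29 ± 1.12 on the log2 scale (SE, n = 5 and 18; edgeR adjusted p = 0.00258). In single cells, 9 of 10 myeloid-like cells were under 10 CPM, against 4 of 36 erythroid-like cells. Both genes were highest, among myeloid-like pairs, in dexamethasone pair 10, whose 2 daughters had 11.3 and 36.9 CPM of Fdft1 and 1.53 and 44.9 CPM of Lss. That pair also had the highest erythroid markers of the 5, at 3.52 on the log2(CPM + 1) scale, against 1.37 to 1.80 in the other 4.

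Between these steps acts squalene epoxidase, the product of Sqle (chromosome 15, 59315077 to 59331192, plus strand). Sqle was at 44.8, 62.1 and 54.2 CPM in myeloid-like dexamethasone pairs 6, 7 and 10, and at 290 and 7.58 CPM in myeloid-like untreated pairs 9 and 10. In erythroid-like pairs it ran from 2.79 to 928 CPM with a median of 383 CPM. Thus 4 of the 18 erythroid-like pairs lay below the highest myeloid-like pair. Its fold change of −1.77 ± 0.78 did not pass the test (SE, n = 5 and 18; edgeR adjusted p = 0.270). It did so without untreated pair 9, the highest of the 5, at −3.40 ± 0.82 (SE; edgeR adjusted p = 0.0360), in a fit that called 1.25% of all genes. Over the 6 fits that each left out 1 pair, the fold change of Sqle reached −1.47 and its edgeR adjusted p 0.43.

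**Figure D2:**
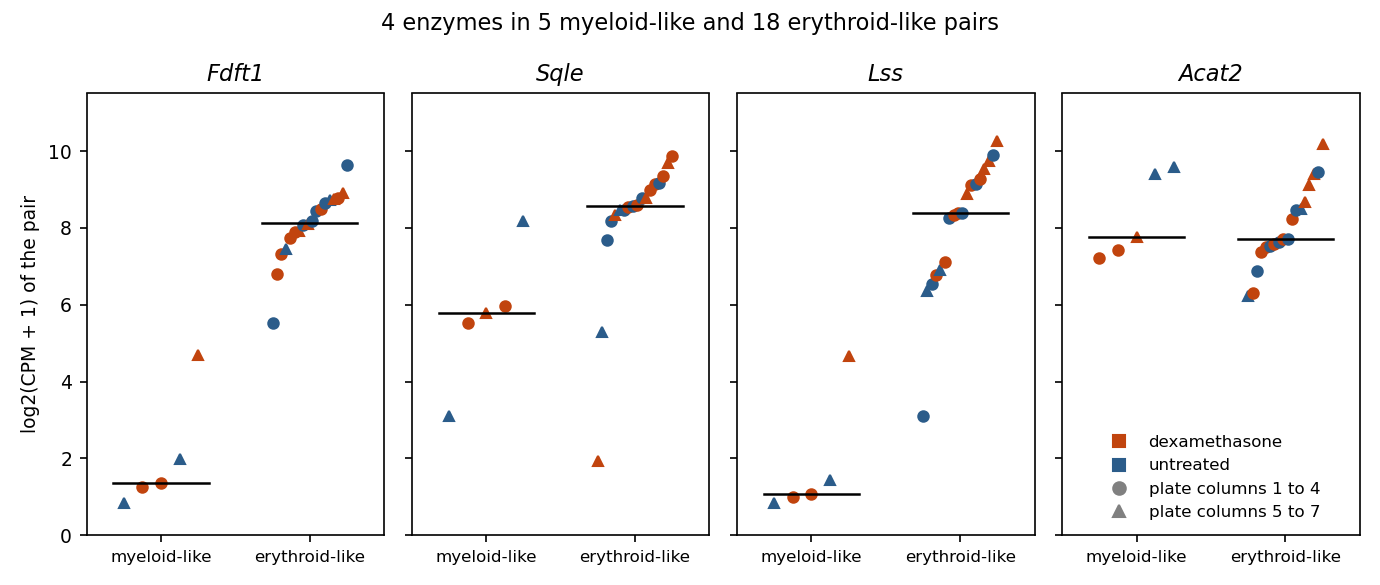
Level of Fdft1, Sqle, Lss and Acat2 in each pair as log2(CPM + 1), with myeloid-like pairs left and erythroid-like pairs right in each panel, treatment by colour, plate column set by symbol and the median as a bar. All 5 myeloid-like pairs lie below all 18 erythroid-like pairs for Fdft1 (at most 24.8 against at least 44.6 CPM); for Acat2 the medians are 215 and 208 CPM.

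The early mevalonate enzymes gave a mixed picture. Acat2, which makes acetoacetyl-CoA, was at 170, 147 and 215 CPM in myeloid-like dexamethasone pairs and at 768 and 676 CPM in myeloid-like untreated pairs. In erythroid-like pairs it ran from 73.4 to 1169 CPM, with a median of 208 CPM, so the ranges overlapped almost wholly. Hmgcs1, the gene of HMG-CoA synthase, was at 58.4, 133 and 0.433 CPM in myeloid-like dexamethasone pairs and 78.3 and 56.8 CPM in myeloid-like untreated pairs. In erythroid-like pairs it ran from 14.4 to 572 CPM with a median of 275 CPM, and 6 of these lay below the highest myeloid-like pair. Its fold change was −1.63 ± 0.73 (SE; edgeR adjusted p = 0.288). Mvk, the mevalonate kinase gene, was at or under 0.397 CPM in 4 myeloid-like pairs and at 129 CPM in dexamethasone pair 10. In erythroid-like pairs its range was 0 to 350 CPM with a median of 92.9 CPM, and its fold change was −2.36 ± 1.64 (SE; edgeR adjusted p = 0.585). Without dexamethasone pair 10, the pair that held nearly all Mvk of the class, it was −8.69 ± 2.03 and called (SE; edgeR adjusted p = 0.0171). That fit called 3.14% of all genes. Over the 6 fits that each left out 1 pair, the fold change of Mvk reached −1.87 and its edgeR adjusted p 0.741. The next kinase, Pmvk, and the decarboxylase Mvd had medians of 89.3 and 85.6 CPM in myeloid-like pairs, against 99.9 and 82.2 CPM in erythroid-like pairs. Mvd was split by plate columns. It was at 0.278 and 0.198 CPM in myeloid-like dexamethasone pairs 6 and 7 of columns 1 to 4. In columns 5 to 7 it was at 101 CPM in myeloid-like dexamethasone pair 10 and at 85.6 and 209 CPM in myeloid-like untreated pairs 9 and 10.

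None of the isoprenoid genes passed the test. Idi1, the isopentenyl diphosphate isomerase gene, had a median of 13.3 CPM in myeloid-like and 35.9 CPM in erythroid-like pairs, with a fold change of −1.17 ± 0.82. Fdps, the farnesyl diphosphate synthase gene, had medians of 51.5 and 97.6 CPM in these classes and a fold change of −0.79 ± 0.63. Ggps1, whose product makes geranylgeranyl diphosphate, had medians of 27.6 and 33.3 CPM, but single myeloid-like pairs ran from 0 to 199 CPM and the fold change was 1.36 ± 1.23 (all SE, n = 5 and 18). It overlaps Arid4b on the opposite strand. The edgeR adjusted p-values were 0.589, 0.662 and 0.722 for these 3 genes.

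Among the enzymes after lanosterol, Lbr was nearest to the threshold in terms of its p. It was at 254, 276 and 203 CPM in myeloid-like dexamethasone pairs and at 175 and 39.5 CPM in myeloid-like untreated pairs. Erythroid-like pairs ran from 137 to 965 CPM with a median of 470 CPM, and 5 of the 18 lay below the highest myeloid-like pair. The fold change was −1.09 ± 0.46 (SE; edgeR adjusted p = 0.249). Tm7sf2 lay the other way: dexamethasone pairs 6, 7 and 10 had 0, 50.6 and 104 CPM and untreated pairs 9 and 10 had 0 and 148 CPM. Erythroid-like pairs ran from 0 to 42.4 CPM with a median of 6.41 CPM, and the fold change was 2.97 ± 1.36 (SE; edgeR adjusted p = 0.300). With the number of detected genes as a covariate, which called 2.36% of all genes, Tm7sf2 was called at 6.04 ± 1.58 (SE; edgeR adjusted p = 0.0426). In the fit without that term neither reductase of the step passed the test. The lanosterol demethylase gene Cyp51 had medians of 29.9 CPM in myeloid-like and 337 CPM in erythroid-like pairs, with a fold change of −1.32 ± 0.93. It overlaps Akap9 on the opposite strand. Msmo1, a sterol methyl oxidase gene, had medians of 178 and 349 CPM and a fold change of −0.80 ± 0.57. Nsdhl, which removes the carboxylated methyl groups, had 4.32 and 130 CPM and a fold change of −2.78 ± 1.54. The isomerase gene Ebp had 104 and 119 CPM and a fold change of 0.97 ± 0.69, and the last reductase, Dhcr7, 0.278 and 83.8 CPM and −1.48 ± 1.46. Their edgeR adjusted p-values were 0.439 to 0.755. Hsd17b7 and Sc5d, the sterol desaturase gene, had medians of 0 and 22.8 CPM in myeloid-like pairs and 18.2 and 151 CPM in erythroid-like pairs. Sc5d was likewise at 0.557 and 0.397 CPM in myeloid-like dexamethasone pairs 6 and 7, against 22.8 to 231 CPM in the other 3 myeloid-like pairs.

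**Figure D3:**
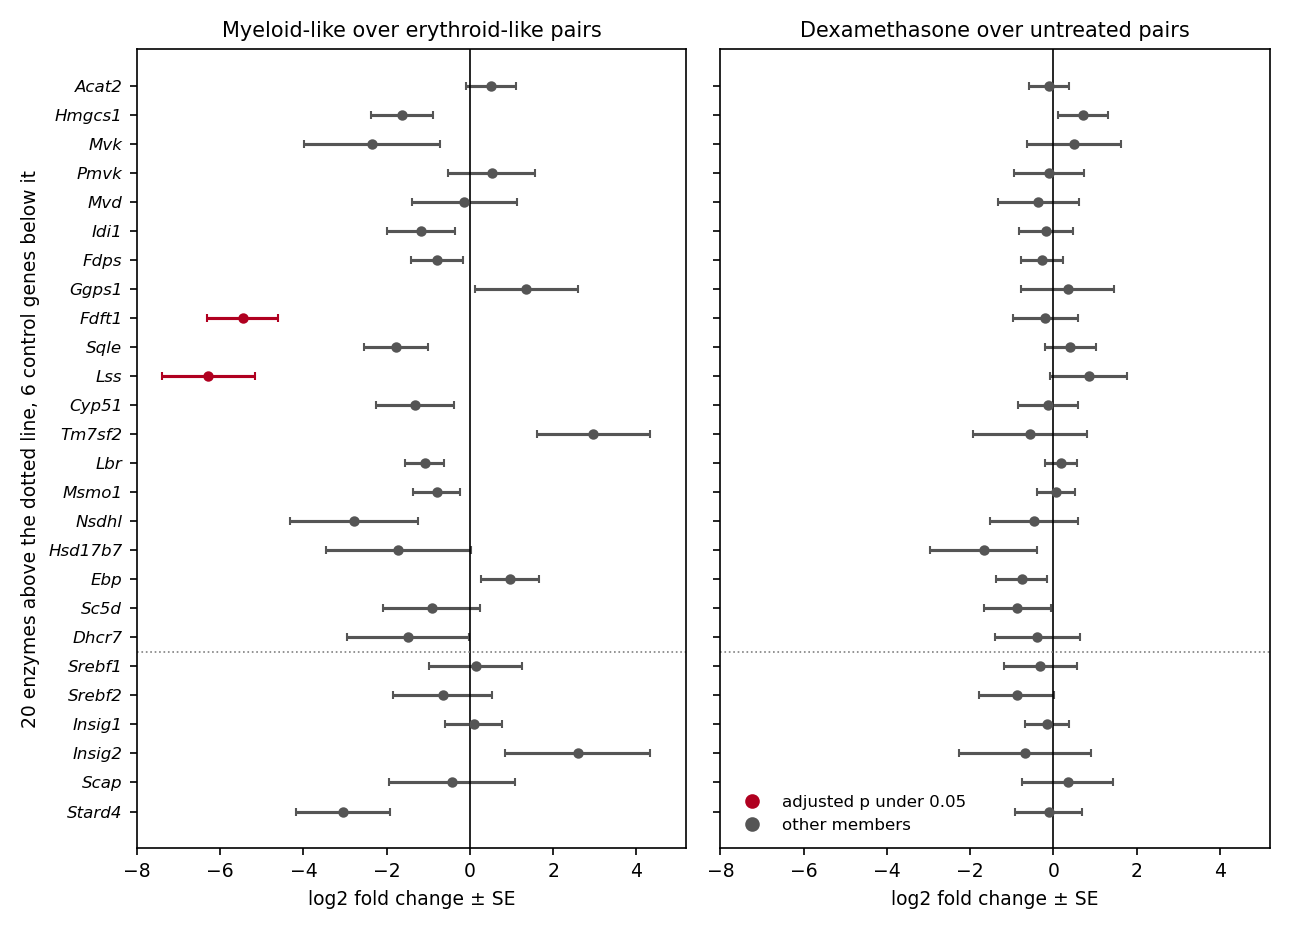
Log2 fold change with its SE from edgeR for each of the 26 genes, for 5 myeloid-like over 18 erythroid-like pairs on the left and for 13 dexamethasone over 10 untreated pairs on the right. Fdft1 (−5.46) and Lss (−6.29) stand apart on the left in red, as the genes past the threshold; on the right the points run from −1.67 to 0.85 with none past it.

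Of the 6 control genes none was called in this comparison, and Stard4 alone had an unadjusted p under 0.05. Stard4 encodes a soluble sterol transfer protein. It was at 41.5, 0.198 and 20.9 CPM in myeloid-like dexamethasone pairs and at 0.519 and 0.194 CPM in myeloid-like untreated pairs. Erythroid-like pairs ran from 1.08 to 220 CPM with a median of 96.4 CPM, and 2 of them lay below the highest myeloid-like pair. The fold change was −3.05 ± 1.12 (SE; edgeR adjusted p = 0.158). Srebf2 had medians of 17.5 CPM in myeloid-like and 55.0 CPM in erythroid-like pairs. Srebf1, the gene of SREBP-1, had medians of 2.78 and 46.8 CPM, Scap 0.835 and 55.8 CPM, and Insig1 66.7 and 218 CPM, with ranges that overlapped for each. Despite these medians, the fold changes of Srebf1 and Insig1 were 0.14 ± 1.12 and 0.10 ± 0.69, which is no lowering. Those of Srebf2 and Scap were −0.66 ± 1.19 and −0.43 ± 1.5, also within the SE. The edgeR adjusted p-values of these genes were 0.888 to 0.979. Insig2 was at or near 0 in 3 myeloid-like pairs and at 105 and 206 CPM in dexamethasone pair 7 and untreated pair 10, while erythroid-like pairs reached 69.4 CPM (fold change 2.60 ± 1.74, SE; edgeR adjusted p = 0.564).

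Around the pathway, 1 gene of the 4 neighbouring lists was called. Npc2, whose product carries cholesterol out of lysosomes, rose in myeloid-like pairs, which had 311 to 1053 CPM with a median of 533 CPM, against 57.4 to 290 CPM with a median of 149 CPM in erythroid-like pairs. The groups did not overlap, which was so in this direction for 29 of all 7190 genes. The fold change was 2.33 ± 0.35 (SE, n = 5 and 18, edgeR adjusted p = 0.000488). Npc2 was the 1 called of 13 tested genes for sterol uptake, transport, efflux and esterification. Among 11 tested genes of SREBP processing and sterol sensing, 11 of fatty acid synthesis under SREBP and 14 of isoprenoid use edgeR called 0, with 0, 1 and 0 genes at an unadjusted p under 0.05.

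The mean log2(CPM + 1) of the 20 enzymes, used as a score, was 3.49 ± 0.59 in myeloid-like pairs (SD, n = 5) and 5.80 ± 1.08 in erythroid-like pairs (SD, n = 18). The ranges were 2.81 to 4.23 and 3.75 to 7.56. On the same scale, a limma fit gave a median fold change of −1.88 over the 20 enzymes, against −0.80 over all 7190 genes tested. The score moves with how many genes a cell yields, and myeloid-like pairs averaged 7151 detected genes against 7666 in erythroid-like pairs. It also differed between the 2 sets of library plate columns that the labels give. Within columns 1 to 4 the score was 3.02 ± 0.30 in myeloid-like (SD, n = 2) and 6.28 ± 0.84 in erythroid-like pairs (SD, n = 12). Within columns 5 to 7 it was 3.80 ± 0.53 (SD, n = 3) and 4.83 ± 0.85 (SD, n = 6) in these classes, where myeloid-like pairs averaged 7198 and erythroid-like pairs 6775 detected genes.

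**Figure D4:**
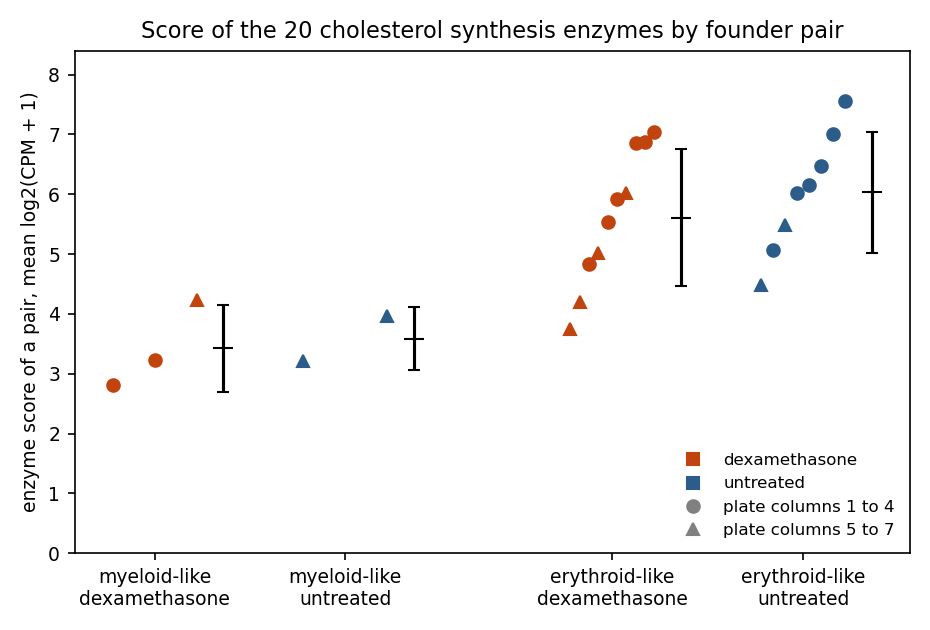
Mean log2(CPM + 1) of the 20 enzymes in each pair, by class and treatment, with plate column set by symbol and the mean with its SD as a black bar. Myeloid-like pairs span 2.81 to 4.23 and erythroid-like pairs 3.75 to 7.56, and among erythroid-like pairs those of columns 5 to 7 average 4.83 against 6.28 in columns 1 to 4.

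Fdft1 and Lss were lower in myeloid-like pairs within each column set, but of these sets the call was made in columns 1 to 4 only. With columns 1 to 4 alone edgeR called 243 genes (3.38%), and the fold changes were −7.15 ± 1.13 for Fdft1 (adjusted p = 0.00253) and −8.12 ± 1.75 for Lss (adjusted p = 0.0179). With columns 5 to 7 alone it called 0 of 7190 genes, with 520 at an unadjusted p under 0.05, and the fold changes were −5.33 ± 1.15 for Fdft1 (adjusted p = 0.351) and −5.54 ± 0.75 for Lss (adjusted p = 0.0979). Columns 1 to 4 also gave calls of Sqle (−3.19 ± 0.51, adjusted p = 0.00272), Mvd (−8.45 ± 1.74, adjusted p = 0.0141) and Sc5d (−8.17 ± 0.98, adjusted p = 0.000424), with only 2 myeloid-like pairs there. In columns 5 to 7 the fold changes of these 3 genes were −0.99 ± 1.82, 0.75 ± 2.35 and 0.50 ± 2.43 (all SE, edgeR). Whether the class difference depended on the column set was tested as an interaction, in which edgeR called 8 of 7190 genes (0.111%) and 0 of the 26. At an unadjusted p under 0.05 there were 3 of the 26, against 768 of the 7190. The interaction term, the later columns minus the earlier ones, was 2.59 ± 1.26 for Fdft1 and 3.17 ± 1.73 for Lss (edgeR adjusted p = 0.469 and 0.542), and 9.24 ± 3.18 for Mvd and 8.90 ± 2.39 for Sc5d (edgeR adjusted p = 0.358 and 0.193). Both stayed called when any of the 5 myeloid-like pairs was left out, with edgeR adjusted p-values up to 0.00474 for Fdft1 and 0.0129 for Lss. Without dexamethasone pair 10, the highest of the 5, the fold changes were −7.19 for Fdft1 and −8.03 for Lss. Both were also called by DESeq2, which called 10.3% of all genes and, of the 26, also Sqle and Stard4. Limma called 6.73% of all genes and, of the 26, Fdft1, Lss, Sqle, Stard4, Hmgcs1, Cyp51 and Insig1, on a scale on which the median of all genes was −0.80. Whether a class difference depended on treatment was tested as an interaction: edgeR called 56 of 7190 genes (0.779%) and 0 of the 26. At an unadjusted p under 0.05 there were 7 of the 26, against 1265 of the 7190. Among myeloid-like pairs, columns 1 to 4 held only dexamethasone pairs 6 and 7, and both untreated pairs, 9 and 10, were in columns 5 to 7. Only dexamethasone pair 10 separates the interaction with column set from that with treatment, so they can hardly be told apart.

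None of the 26 genes was called between dexamethasone and untreated pairs. With 13 dexamethasone and 10 untreated pairs, edgeR called 0 of 7190 genes (0%), 71 having an unadjusted p under 0.05, none of them among the 26. DESeq2 and limma also called 0, with 173 and 304 genes at an unadjusted p under 0.05. All these counts are lower than evenly spread p-values would give. Since no gene of any kind was called, the lack of calls among the 26 does not show that they did not respond. Of the 26 fold changes 18 were negative and the median was −0.16 on the log2 scale, against 0.02 over all genes. It was −0.43 within plate columns 1 to 4, 0.64 within columns 5 to 7 over the 23 of them tested there, and 0.09 among erythroid-like pairs alone, so its sign was not stable. Since single columns other than column 6 hold 1 treatment each, dexamethasone and single plate columns cannot be told apart.

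The fold change exceeded its own SE in 4 of the 26 genes (15.4%), against 19.3% of all genes tested. Hmgcs1 was at 0.433 to 572 CPM with a median of 276 CPM in dexamethasone pairs, against 56.8 to 415 CPM with a median of 122 CPM in untreated pairs. Its fold change was 0.72 ± 0.59. Ebp was at 0.381 to 358 CPM with a median of 68.8 CPM in dexamethasone pairs, against 56.2 to 292 CPM with a median of 180 CPM in untreated pairs (fold change −0.76 ± 0.61). Sc5d had medians of 139 and 167 CPM with and without dexamethasone and a fold change of −0.87 ± 0.80. Hsd17b7 had medians of 0.137 and 30.8 CPM and a fold change of −1.67 ± 1.29 (all SE, n = 13 dexamethasone and 10 untreated pairs). The ranges of the 2 treatments overlapped for all 4 genes, and the edgeR adjusted p was 0.9999 for each. The enzyme score was 5.10 ± 1.41 in dexamethasone pairs (SD, n = 13) and 5.54 ± 1.37 in untreated pairs (SD, n = 10). Among erythroid-like pairs it was 5.61 ± 1.15 (SD, n = 10) and 6.03 ± 1.01 (SD, n = 8) in these treatments. Lss, although lower in the myeloid-like class, spanned 109 to 1226 CPM in erythroid-like dexamethasone pairs and 7.60 to 949 CPM in erythroid-like untreated pairs.

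Daughters of a founder were closer in enzyme score than cells of different founders, and for single members the gap was narrower. The score of the 2 daughters differed by 0.576 ± 0.651 on the log2 scale (SD, n = 23 pairs), while cells of different founders under the same treatment differed by 1.71 on average. Within erythroid-like pairs these differences were 0.484 and 1.34. Daughters also shared a plate column, whereas cells of different founders mixed the column sets. Erythroid-like pairs averaged a score of 6.28 in columns 1 to 4 and 4.83 in columns 5 to 7. The part of plate position in the closeness of daughters in score was not tested. The widest gap was in untreated pair 9, a myeloid-like pair, whose daughters scored 2.64 and 5.28. For single members the mean difference between daughters, divided by that between cells of different founders, had a median of 0.871 and was under 1 for 22 of 26 genes (84.6%). Over the 8015 genes with enough counts in single cells the median ratio was 0.865, and 79.0% were under 1.

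Fdft1 was the member with the smallest ratio, 0.455. Its daughters differed by 1.52 ± 1.61 on the log2(CPM + 1) scale (SD, n = 23 pairs), against 3.33 between founders. It was also the 1 of 26 members for which founders differed beyond their daughters in edgeR's joint test of all pair terms (adjusted p = 0.00698), a test that called 3.38% of all 8015 genes. Lss came next, with a ratio of 0.524 and an adjusted p of 0.0632 in edgeR. Fdps followed with an adjusted p of 0.110 and Mvk with 0.133, both by edgeR. The call of Fdft1 was lost among erythroid-like pairs alone (edgeR adjusted p = 0.767), where daughters differed by 1.64 and founders by 1.77. In those 18 pairs the called member was Fdps instead (edgeR adjusted p = 0.0204), whose daughters differed by 1.04 and founders by 1.62, while 158 genes were called in all (2.12%). Limma, with 8.12% of all genes called, named Fdft1, Lss, Sqle and Mvk. Of the neighbouring genes, Acss2, the gene of cytosolic acetyl-CoA synthetase, was called (edgeR adjusted p = 0.0209).

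**Figure D5:**
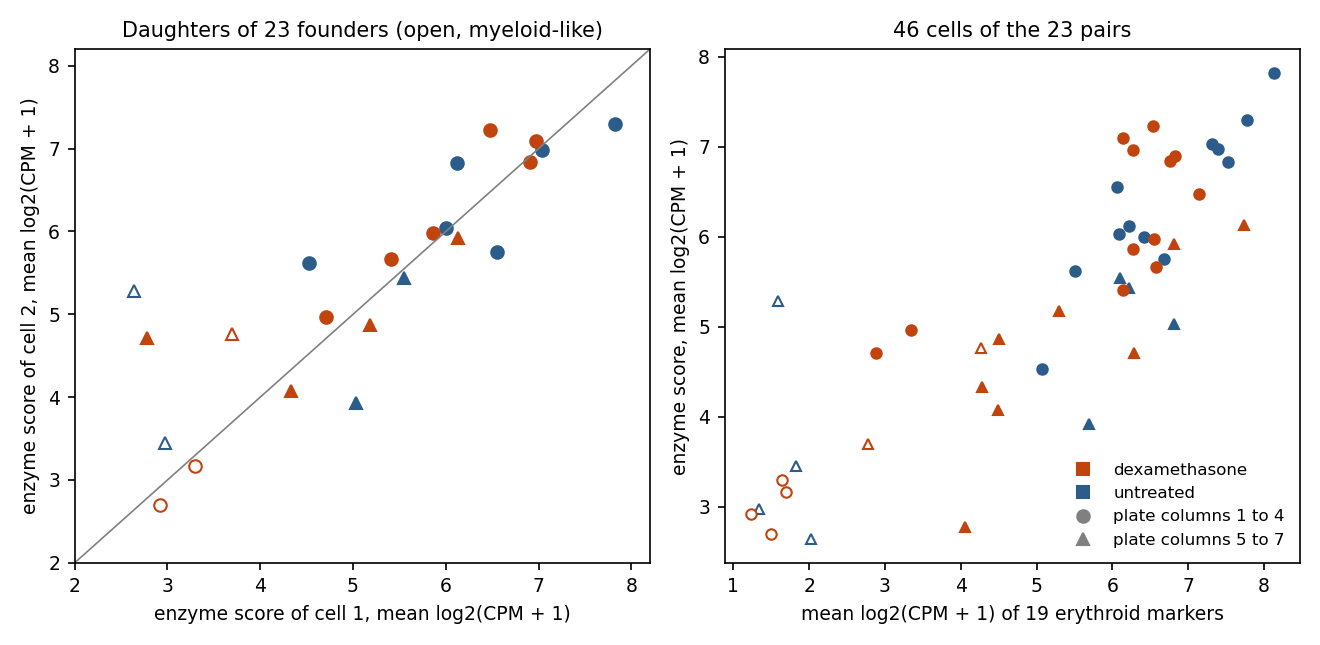
Left, enzyme score of cell 2 against cell 1 for the 23 pairs, with the line of equality; right, enzyme score against the mean of 19 erythroid markers for the 46 cells, with myeloid-like cells as open symbols, treatment by colour and plate column set by symbol. Daughters differ by 0.576 on average against 1.71 between founders, and within the 36 erythroid-like cells score and erythroid markers have r = 0.75.

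Within the erythroid-like class the pathway was not uniform. Over its 36 cells the enzyme score had a Pearson correlation of 0.75 and a Spearman correlation of 0.73 with the mean of the erythroid markers, and of 0.73 and 0.66 with the number of genes detected. With the log2 library total they were 0.36 and 0.10. The 36 cells come in pairs that share a founder. Marker level and gene detection both depend on what a library captured, and their part in the score was not tested. In the 24 cells of columns 1 to 4 the correlation with erythroid markers was 0.79, and in the 12 cells of columns 5 to 7 it was 0.77. Among the members, Srebf2 and Msmo1 had the highest Pearson correlations with the mean of the other enzymes, 0.63 each, and Sc5d and Cyp51 had 0.57 and 0.54. The Spearman correlations were 0.58 for Srebf2, 0.56 for Msmo1 and Cyp51, and only 0.38 for Sc5d, below Fdft1 at 0.54. Srebf2 was under 1 CPM in 11 and Sc5d in 7 of the 36 cells. Lbr did not follow it (r = −0.14, n = 36 cells), and neither did Ggps1 (r = 0.11) or Acat2 (r = 0.18).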

How the data were processed

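Polyadenylated RNA of single daughter cells was sequenced. The authors deposited whole-number counts of reads per gene, not normalized, in 1 table per treatment. Per the submitters' processing notes STAR 2.4 and featureCounts were used with GRCm38; the sources used here do not state strand settings, so overlapping genes may share reads. No molecular identifiers are mentioned. The bound of 3 counts for a pair at 0 CPM covers counting error only. Column names matched 1 sample each.

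Counts of both daughters were summed, since the founder is the replicate, over the 23 pairs whose libraries each held at least 100000 counts. edgeR 4.0.16 in R 4.3.3 was used with filterByExpr on treatment, TMM, glmQLFit, glmQLFTest and Benjamini-Hochberg adjustment over all genes tested; calls had an adjusted p under 0.05. Each SE is the log2 fold change divided by the square root of F. Founders were tested against daughters on single libraries, over genes that reached 5 counts in 10 or more libraries. limma 3.58.1, on mean log2(CPM + 1), and DESeq2 1.42.0 were alternatives, with other filters, scalings, covariates, subsets and left-out pairs. The scripts were tested on simulated data. Locations come from GENCODE M21 and promoters from RefSeq. All 26 genes are named with their levels. Fold changes are printed for those above their SE and, between classes, for Srebf1, Srebf2, Scap and Insig1. The genes and lists were chosen with earlier results of these data known. Replicate numbers did not pair dexamethasone with untreated samples.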

Additional observations from a re-analysis of the deposited data

Results flagged for a closer look

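Within groups of 4 to 10 pairs, 15 of 108 gene and group combinations examined held a pair whose gap to its nearest neighbour, relative to the range of the group, was above Dixon's 95% critical value. Chance gives about 1 in 20 for normally distributed values, and the untreated group shares pairs with the others. Levels here often lie near 0, and some groups mix treatments or classes. That rate need not hold, so 15 of 108 cannot be read as an excess. Values are log2(CPM + 1) of a pair, and the causes were not tested. Among myeloid-like pairs, dexamethasone pair 10 was lowest for Hmgcs1 (0.52) and highest for Mvk (7.02) and Lss (4.67 or 24.4 CPM), dexamethasone pair 7 was lowest for Pmvk (0.26) and untreated pair 10 was lowest for Lbr (5.34). In erythroid-like dexamethasone pairs, pair 9 was lowest for Hmgcs1 (3.94), pair 12 for Sqle (1.92), pair 11 for Msmo1 (4.77) and pair 8 for Stard4 (1.06). In erythroid-like untreated pairs, pair 11 was lowest for Sqle (5.30) and Scap (0.22), and pair 2 for Pmvk (3.26), where it was also the lowest of all untreated pairs. Over all untreated pairs, pair 11 was lowest for Mvd (0) and pair 10 for Cyp51 (0).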

How the results depend on the processing

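Fdft1 and Lss kept their direction and their call in the class comparison under every alternative run, except in plate columns 5 to 7 alone (−5.33 and −5.54, adjusted p = 0.351 and 0.0979 by edgeR). The number of genes called in that comparison, 168, was 737 with DESeq2, 484 with limma, 739 without the filter and 0 in columns 5 to 7, and 90 to 226 when 1 pair was left out, 102 without untreated pair 10 and 90 without untreated pair 9. Members called were 4 with DESeq2, 7 with limma, 5 in columns 1 to 4 and 0 in columns 5 to 7, against 2; they were 3 with the detected-genes term (Tm7sf2 added), without dexamethasone pair 10 (Mvk added) and without untreated pair 9 (Sqle added). Ggps1 (−0.47) and Ebp (−0.32) changed sign with limma, and Fdps (0.17) in columns 5 to 7. The score difference between classes was −1.11 from the log2 of summed CPM, against −2.31 for the mean of logs. For founders against daughters, the 271 calls became 651 with limma, 3313 without the filter, 158 in erythroid-like pairs and 93 within a plate column, with 2 members called under RLE scaling, 4 with limma and 14 without the filter, against 1. The causes were not tested. The class term in the dexamethasone fit, the detected-genes term and the class fit without dexamethasone pair 8 were chosen after seeing the data. In the dexamethasone fit with a replicate block 0 genes and 0 members were called, with Hsd17b7 at −3.73; same-numbered samples deviated together with correlations of −0.13 to 0.15 (median 0.06), above 0.1 for 2 of 10 numbers, and 1 sample pair correlated best with its own number. Few myeloid-like pairs and the uneven capture of single cells limit what could be detected.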
